A study of Mus musculus with 96 samples.

Results

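The genes that move sterol regulatory element-binding proteins (SREBPs) from the endoplasmic reticulum (ER) to the nucleus were followed across genotype and time of day in mouse hepatocytes and liver macrophages. The set held 7 genes: Scap, Srebf1, Srebf2, Insig1, Insig2, Mbtps1 and Mbtps2. They were found by symbol in the annotation of each expression table and accounted for 7 of 25095 symbols and for 16 of 42322 transcript entries per table. All 7 passed the filter on low values in all 4 tables, and the rule that names them uses no measured value, although the set was chosen with earlier results of these data known.

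SREBPs are made as inactive precursors in the ER membrane, where they are bound to the escort protein SCAP. When ER sterols are high, INSIG proteins hold SCAP in place. When sterols fall, SCAP carries the precursor in COPII vesicles to the Golgi, where the site-1 and site-2 proteases cut it in turn and release the part that enters the nucleus and switches on genes of cholesterol and fatty acid synthesis. Srebf1 and Insig1 are themselves among the SREBP target genes, and in liver the pathway follows feeding and insulin.

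The libraries were bulk RNA sequencing of 96 samples from male C57BL/6J mice kept for 4 weeks on a high fat and sucrose diet (D12492i). Mice with floxed alleles had been injected intravenously at 8 weeks of age with an adeno-associated virus in which the hepatocyte-specific TBG promoter drove either GFP, for the Control group, or Cre, so that the deletion was directed at hepatocytes and not at macrophages. The groups were Control, RevDKO (labelled ReverbhDKO, lacking Rev-erb alpha and Rev-erb beta in hepatocytes), RevScapTKO (labelled Reverb/ScaphTKO, lacking Scap as well) and ScapKO (labelled ScaphKO, lacking Scap alone; how these mice were made is not given in the sources used here). Livers were taken at ZT4, ZT10, ZT16 and ZT22, the hours since lights on in a cycle of 12 h light and 12 h dark, and each genotype, time and cell type had 3 libraries. Control, RevDKO and RevScapTKO shared 1 table of 36 libraries per cell type, and ScapKO had a separate table of 12 libraries per cell type, so ScapKO levels are described only within that table.

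The values are RPKTM, reads per kilobase of transcript per 10000000 reads, quantile-normalized by the authors within each table. Quantile normalization gives all libraries of a table the same set of values, so the depth of a library is unknown and no counting interval can be given. RPKTM is scaled to length, so levels of different genes can be set side by side. Differences were taken as log2(RPKTM + 1), and changes of genes with low levels are larger than these values show. Where the sources do not say that libraries of a group came from separate animals, the p-values measure only the spread between these libraries.

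The label checks came first. Scap in hepatocytes had its lowest, median and highest level at 395, 494 and 698 RPKTM in Control, at 321, 525 and 733 in RevDKO and at 82.8, 210 and 299 in RevScapTKO (12 libraries each), and the RevScapTKO libraries lay wholly below both other genotypes. For Scap as for the REV-ERB genes, the segment that Cre removes is not counted apart from the rest of the transcript, so these levels do not show whether it was lost. The whole-transcript levels of the REV-ERB genes were not lower in the libraries labelled RevDKO: the median of Nr1d1 (Rev-erb alpha) in hepatocytes was 45.9 RPKTM in Control and 91.3 in RevDKO, and that of Nr1d2 (Rev-erb beta) was 218 and 320. The mean of Nr1d1 over the 4 times was 1.55 higher on the log2 scale (SE 0.25, limma adjusted p = 8.87e-05). Arntl (Bmal1), a clock gene that REV-ERBs repress and that was added as a check after the data were seen, was at 4.21, 4.62 and 10.6 RPKTM at ZT10 in Control and at 117, 122 and 145 in RevDKO, all higher. Its mean over the 4 times rose by 1.83 on the log2 scale (SE 0.13, adjusted p = 1.6e-11). Since Nr1d1 and Nr1d2 do not check the genotype, a direction drawn from that group or from the group labelled RevScapTKO below rests on the label. Of the cell type markers, 9 of the 10 hepatocyte markers were measured (Tf was not), and none of the measured markers was at 0 in all libraries of a group. In the 12 ScapKO libraries whose titles say hepatocytes, a cell type field names liver macrophages, while their mean log2 level of hepatocyte markers was 14.37 to 15.24 against 4.84 to 7.51 for macrophage markers.

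Promoters of the INSIG and SREBP genes are shown because Srebf1, Insig1 and Insig2 carry most of the differences below. Srebf2 holds the only match to the 1 SREBP motif searched, TCACNCCA. Each window runs from 250 bases before to 50 bases after an annotated gene start in RefSeq on GRCm38.p6, a later build than the mm9 of the expression files. Of the members, 7 of 7 had at least 1 entry and 12 windows in all. Insig2 and Srebf1 had 3 windows each, of which 2 are printed: that at the start of the transcript tested in hepatocytes, matched by the distances between starts, which were the same in both builds, and a second one that held a match. The entries of a gene moved together, so the levels do not tell its starts apart. Capitals mark matches, on either strand, to TCACNCCA (core of a sterol regulatory element), CACGTG (an E-box), CCAAT (an NF-Y box) or TAGGTCA (core of a ROR and REV-ERB element).
Insig2, tested start, chr1:121327975-121328274, minus strand: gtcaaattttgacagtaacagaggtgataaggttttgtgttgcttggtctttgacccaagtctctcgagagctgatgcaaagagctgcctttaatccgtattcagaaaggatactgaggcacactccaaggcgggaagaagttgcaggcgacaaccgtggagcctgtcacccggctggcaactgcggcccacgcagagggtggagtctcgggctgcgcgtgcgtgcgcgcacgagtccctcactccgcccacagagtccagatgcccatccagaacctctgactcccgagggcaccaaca
Insig2, start 4565 bases upstream, chr1:121332540-121332839, minus strand: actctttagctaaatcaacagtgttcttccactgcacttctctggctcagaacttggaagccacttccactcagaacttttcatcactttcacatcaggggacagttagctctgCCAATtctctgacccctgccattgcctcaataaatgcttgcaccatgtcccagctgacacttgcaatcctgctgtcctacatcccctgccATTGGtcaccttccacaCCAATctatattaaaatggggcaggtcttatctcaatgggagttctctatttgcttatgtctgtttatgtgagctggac
Insig1, chr5:28071162-28071461, plus strand: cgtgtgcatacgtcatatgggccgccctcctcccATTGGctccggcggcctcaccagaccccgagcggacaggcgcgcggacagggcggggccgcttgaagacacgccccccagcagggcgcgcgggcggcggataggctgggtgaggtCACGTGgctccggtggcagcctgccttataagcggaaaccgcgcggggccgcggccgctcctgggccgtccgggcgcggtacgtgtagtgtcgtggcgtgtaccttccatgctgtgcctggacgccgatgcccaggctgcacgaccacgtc
Srebf1, tested start, chr11:60220578-60220877, minus strand: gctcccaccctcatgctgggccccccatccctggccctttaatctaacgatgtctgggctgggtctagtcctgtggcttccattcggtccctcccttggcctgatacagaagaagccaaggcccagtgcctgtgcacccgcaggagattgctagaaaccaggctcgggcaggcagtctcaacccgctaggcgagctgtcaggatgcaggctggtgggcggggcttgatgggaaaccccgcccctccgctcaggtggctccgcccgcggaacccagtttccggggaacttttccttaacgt
Srebf1, downstream start, chr11:60210422-60210721, minus strand: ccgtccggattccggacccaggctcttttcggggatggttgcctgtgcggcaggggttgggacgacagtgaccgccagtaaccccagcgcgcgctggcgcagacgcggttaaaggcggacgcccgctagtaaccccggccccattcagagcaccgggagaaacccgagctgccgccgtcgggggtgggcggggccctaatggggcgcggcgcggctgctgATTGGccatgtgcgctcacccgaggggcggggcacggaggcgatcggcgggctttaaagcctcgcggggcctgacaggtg
Srebf2, chr15:82147019-82147318, plus strand: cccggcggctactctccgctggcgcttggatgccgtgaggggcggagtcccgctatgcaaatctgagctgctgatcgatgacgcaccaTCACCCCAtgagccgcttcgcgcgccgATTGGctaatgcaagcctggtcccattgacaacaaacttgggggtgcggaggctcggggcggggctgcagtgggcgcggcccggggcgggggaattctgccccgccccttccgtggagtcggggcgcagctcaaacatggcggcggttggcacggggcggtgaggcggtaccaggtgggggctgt
The letters TCACNCCA were in 1 of the 12 windows, that of Srebf2, against 4.36% of 32851 promoter windows of the same length. CACGTG was in 3 of 12 (Insig1 and both Scap windows, which share 232 bases and the same CACGTG) against 7.15%, CCAAT in 5 of 12 against 37.4%, and TAGGTCA in 0 of 12 against 2.61%. These matches are letters in a window and not binding sites, and the motifs were chosen with the results known. Other forms of these elements were not searched, so a window without a match may still hold one. The upstream Insig2 window held 3 matches, all to CCAAT, while both windows at the tested starts of Insig2 and Srebf1 and the third Insig2 window held none; the third Srebf1 window held 1 CCAAT.

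In Control hepatocytes the factor Srebf1 had the highest mean level of the set, at 2385 RPKTM, followed by Insig1 at 1356, Insig2 at 732, Scap at 495, the site-1 protease gene Mbtps1 at 298, Srebf2 at 247 and the site-2 protease gene Mbtps2 at 46.1. The ranges of neighbours in this order overlapped, except that all Srebf2 libraries lay above all Mbtps2 libraries. In the libraries labelled RevScapTKO the order of the means was Insig2 at 828, Mbtps1 at 334, Scap at 209, Srebf1 at 133, Srebf2 at 79.7, Insig1 at 78.1 and Mbtps2 at 57.0, and the ranges of Insig2 and Mbtps1 were the only neighbours apart. Insig2 thus moved from the third place to the first, while Srebf1 moved from the first to the fourth.

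**Figure D1:**
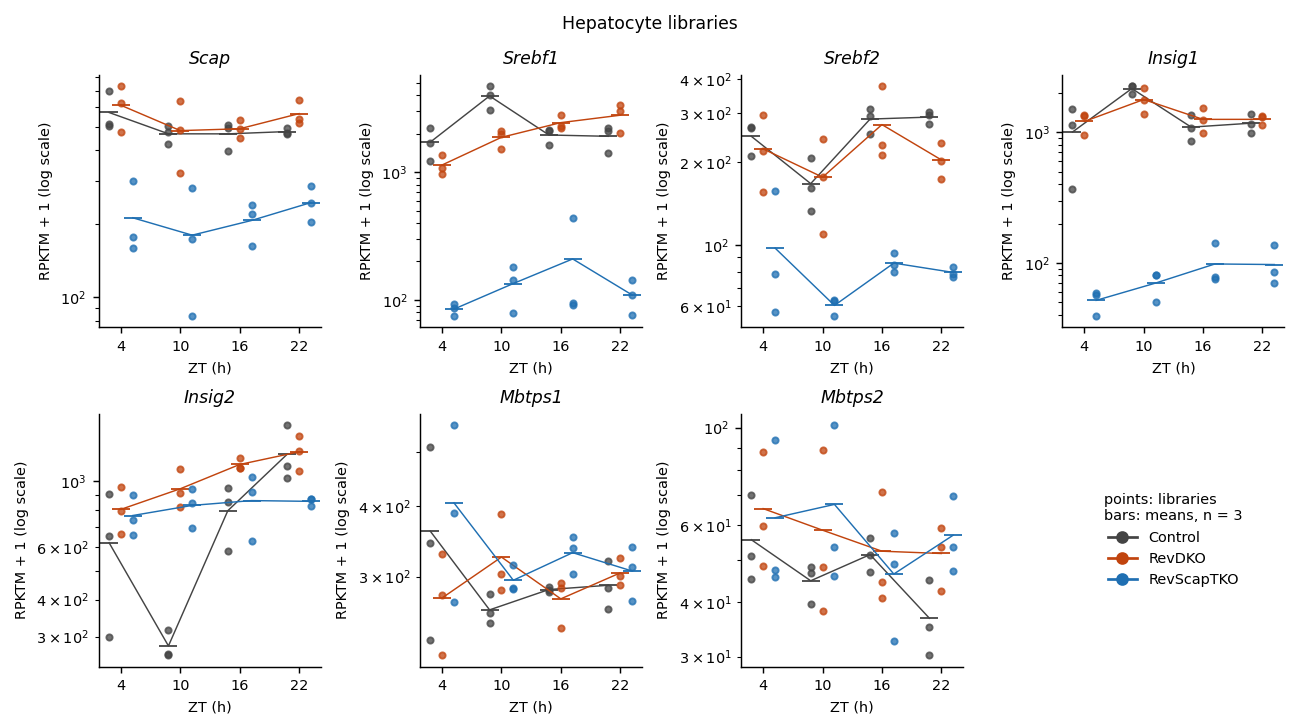
Level of the 7 genes in hepatocytes (RPKTM, log scale) against zeitgeber time (h), with each point a library, drawn beside its time, and each line the mean of 3 libraries for Control, RevDKO and RevScapTKO. Srebf1 and Insig1 of RevScapTKO lie below all other libraries at every time, and Insig2 of Control dips to 259 to 314 RPKTM at ZT10.

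Scap, the escort, was compared between RevDKO and Control to ask whether loss of the REV-ERBs altered the sensor itself. Its mean over the 4 times differed by 0.10 on the log2 scale (SE 0.14, limma adjusted p = 0.801), and the libraries overlapped, as they did for each of the 7 members (0.36% of all genes did not overlap). At ZT22 the 3 RevDKO libraries, at 536, 640 and 518 RPKTM, all lay above the Control libraries at 471, 493 and 465, with a log2 difference of 0.24 (SE 0.29, adjusted p = 0.938). At that time 16.3% of all genes had libraries that did not overlap between these groups.

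Srebf1 encodes SREBP1, the form that chiefly drives fatty acid synthesis genes in liver. At ZT4 its Control libraries held 1708, 1220 and 2226 RPKTM and the RevDKO libraries 1358, 1081 and 976. At ZT10, Control held 3076, 4059 and 4734 and RevDKO 1978, 1532 and 2117. At ZT10 each RevDKO library lay below each Control library. The order was the opposite at ZT16, where Control held 1621, 2117 and 2130 RPKTM and RevDKO 2300, 2221 and 2816. At ZT22 the groups overlapped, with Control at 1409, 2095 and 2226 and RevDKO at 3334, 3024 and 2027. At ZT10 17.1% and at ZT16 14.6% of all genes had libraries that did not overlap. The highest mean of Srebf1 was therefore at ZT10 in Control, at 3956 ± 834 RPKTM (SD, n = 3), and at ZT22 in RevDKO, at 2795 ± 683. The log2 difference was -1.07 at ZT10 (SE 0.38, adjusted p = 0.260) and 0.33 at ZT16 (SE 0.38, adjusted p = 1). Over the 4 times it was -0.19 (SE 0.19, adjusted p = 0.677). With the RevScapTKO libraries left out of the fit, the ZT10 difference of Srebf1 passed the threshold (adjusted p = 0.0123), as it did with only RevScapTKO ZT16 replicate 1 left out (adjusted p = 0.0343), which at 440 RPKTM was the highest RevScapTKO library.

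Srebf2 encodes SREBP2, which chiefly drives cholesterol synthesis genes. Its lowest, median and highest levels were 132, 265 and 310 RPKTM in Control and 108, 214 and 376 in RevDKO, with a log2 difference of -0.20 (SE 0.14, adjusted p = 0.518). At ZT22 the RevDKO libraries, at 201, 233 and 173 RPKTM, lay below the Control libraries at 294, 303 and 272, with a log2 difference of -0.52 (SE 0.28, adjusted p = 0.658). Libraries did not overlap for 16.3% of all genes at ZT22. The other 3 times overlapped.

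Insig1, an SREBP target that holds SCAP in the ER, did not separate RevDKO from Control at any time. Its lowest, median and highest levels were 367, 1251 and 2257 RPKTM in Control and 956, 1322 and 2180 in RevDKO. The difference of the means over the 4 times was 0.12 on the log2 scale (SE 0.17, adjusted p = 0.790).

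Insig2, the second ER retention protein and in liver not an SREBP target, was the 1 member of 7 whose mean over the 4 times rose in the libraries labelled RevDKO. The log2 difference was 0.71 (SE 0.13, adjusted p = 0.000521), or 1.64-fold, and 4.43% of the 13326 genes tested passed in either direction (2% higher and 2.43% lower). At ZT10, Control held 261, 314 and 259 RPKTM and RevDKO 821, 1100 and 911. These groups lay far apart, with a log2 difference of 1.75 (SE 0.26, adjusted p = 7.01e-05), or 3.37-fold. Insig2 was the 1 member called at ZT10, where 0.69% of all genes passed and were higher. At ZT4, Control held 908, 656 and 298 RPKTM and RevDKO 665, 955 and 793, which overlapped. At ZT16, Control held 583, 854 and 951 and RevDKO 1113, 1106 and 1202, all higher. At ZT22, Control held 1128, 1030 and 1545 and RevDKO 1086, 1422 and 1265, which overlapped. Libraries did not overlap for 17.1% of all genes at ZT10 and for 14.6% at ZT16. The log2 differences of Insig2 were 0.50 at ZT4 (adjusted p = 0.560), 0.55 at ZT16 (adjusted p = 0.853) and 0.04 at ZT22 (adjusted p = 0.992). No member was called by limma at ZT4 or ZT22, where 0.585% and 0.488% of all genes passed, with 0 members at an unadjusted p under 0.05. At ZT16, 0.3% of genes and no member passed, with Insig2 alone at an unadjusted p under 0.05.

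Neither protease gene passed in RevDKO against Control. Mbtps1, the site-1 protease, ranged from 231 to 508 RPKTM in Control and from 217 to 387 in RevDKO, with a log2 difference of -0.01 (SE 0.11, adjusted p = 0.988). At ZT10 all 3 RevDKO libraries of Mbtps1 lay above Control, with a log2 difference of 0.30 (SE 0.22, adjusted p = 0.868). At that time 17.1% of all genes had libraries that did not overlap. Mbtps2, the site-2 protease, ranged from 29.3 to 69.3 RPKTM in Control and from 37.1 to 87.8 in RevDKO, with a log2 difference of 0.25 (SE 0.16, adjusted p = 0.471).

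Daily rhythm was tested with a fitted 24 h cosine, for which the peak-to-trough difference and the peak time are given. In Control hepatocytes, Insig2 had a peak-to-trough difference of 2.18 on the log2 scale with its peak at ZT21.2 (adjusted p = 9.4e-06), and 8.29% of genes were called rhythmic. Srebf1 peaked at ZT10.8 (1.08, adjusted p = 0.149), Insig1 at ZT11.3 (0.95, adjusted p = 0.159) and Srebf2 at ZT21.0 (0.85, adjusted p = 0.119), none of which passed. In Control the fitted peaks of Srebf1 and Insig1 thus fell near the trough of Insig2. In RevDKO, 4.08% of genes and 0 members were called by limma, with 1 member, Srebf1, at an unadjusted p under 0.05. Srebf1 peaked there at ZT17.8 (1.24, adjusted p = 0.104) and Insig2 at ZT18.6 (0.66, adjusted p = 0.235). With JTK_CYCLE, a rank-based rhythm test, the study's entry of the series 2 times gave 3 members in Control and 2 in RevDKO (30.1% and 30.9% of genes), and the series entered once gave 2 and 1 (10.4% and 9.34%). Entry 2 times counts each library 2 times and makes its p-values too small, here and below. The JTK_CYCLE p-values, with either entry, were adjusted only for the patterns tried within a gene and not over genes. Its shares of genes are therefore not adjusted as those of limma are. The difference of rhythm between RevDKO and Control passed for 0.203% of genes and for 0 members by limma, with 2 at an unadjusted p under 0.05, Insig2 (adjusted p = 0.0957) and Srebf1 (adjusted p = 0.575). The call of Insig2 depended on the fit, with an adjusted p of 0.0436 with the macrophage marker score as a covariate and of 0.0257 and 0.00505 without Control ZT4 replicate 1 or 3. Srebf1 had an adjusted p of 0.0270 with the RevScapTKO libraries left out.

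The libraries labelled RevScapTKO were compared with RevDKO to ask what deletion of Scap added, and with Control. Per the study's methods, the triple-floxed mice came from a cross of Rev-erb floxed with Scap floxed animals. Breeding line and deletion of Scap therefore cannot be told apart against RevDKO. Which floxed alleles the Control mice carried is not given in the sources used here. The comparisons with RevDKO and with Control share libraries with each other and with that of RevDKO against Control. Their values are therefore given side by side. Scap fell by 1.40 on the log2 scale against RevDKO (SE 0.14, adjusted p = 9.77e-09), which was 2.64-fold lower, and by 1.30 against Control (SE 0.14, adjusted p = 2.87e-08). In all, 4 of 7 members fell against RevDKO, where 26.2% of genes passed in either direction and 12.7% were lower. Against Control, 4 of 7 fell and 1 rose, where 35.9% of genes passed, 18.7% lower and 17.3% higher.

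Srebf1 had its lowest, median and highest level at 74.0, 93.0 and 440 RPKTM in RevScapTKO, against 976, 2072 and 3334 in RevDKO and 1220, 2123 and 4734 in Control. The RevScapTKO libraries lay wholly below both other groups. Srebf1 fell by 4.07 on the log2 scale against RevDKO (SE 0.19, adjusted p = 2.61e-17), which was 16.8-fold lower, and by 4.26 against Control (SE 0.19, adjusted p = 6.81e-18).

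Insig1 was at 38.3, 75.2 and 141 RPKTM in RevScapTKO (lowest, median and highest), again wholly below the levels of the other groups. It fell by 4.18 on the log2 scale against RevDKO (SE 0.17, adjusted p = 9.17e-19), which was 18.1-fold lower, and by 4.05 against Control (SE 0.17, adjusted p = 1.47e-18). Scap, Srebf1 and Insig1 were the 3 members whose 12 RevScapTKO libraries did not overlap RevDKO, and the same 3 did not overlap Control, where 0.758% and 0.991% of all genes were so separated.

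Srebf2 was at 54.3, 77.3 and 156 RPKTM in RevScapTKO, and the highest of these, at ZT4, lay within the range of RevDKO. It was 2.70-fold lower than in RevDKO (SE 0.14 on the log2 scale, adjusted p = 3.47e-09) and 3.10-fold lower than in Control (SE 0.14, adjusted p = 1.18e-10).

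Insig2 was at 628, 858 and 1033 RPKTM in RevScapTKO, within the range of Control (259 to 1545) and overlapping that of RevDKO (665 to 1422). Its log2 difference was -0.31 against RevDKO (SE 0.13, adjusted p = 0.0777), and this passed the threshold with Control libraries left out of the fit (adjusted p = 0.0243). Against Control it rose by 0.40 on the log2 scale (SE 0.13, adjusted p = 0.0161). At ZT10 its RevScapTKO libraries, at 846, 698 and 944 RPKTM, all lay above the Control libraries, and at ZT22, at 871, 827 and 871, all lay below them. The libraries of these groups did not overlap for 28% of all genes at ZT10 and for 24.4% at ZT22. The fitted peak-to-trough difference of Insig2 in RevScapTKO was 0.16 on the log2 scale.

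Mbtps1 ranged from 269 to 557 RPKTM in RevScapTKO, with log2 differences of 0.17 against RevDKO (SE 0.11, adjusted p = 0.253) and 0.16 against Control (SE 0.11, adjusted p = 0.245). Mbtps2 ranged from 31.6 to 100.2 RPKTM, with log2 differences of 0.01 (SE 0.16, adjusted p = 0.957) and 0.26 (SE 0.16, adjusted p = 0.205). Neither protease gene passed in any hepatocyte comparison of means.

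**Figure D2:**
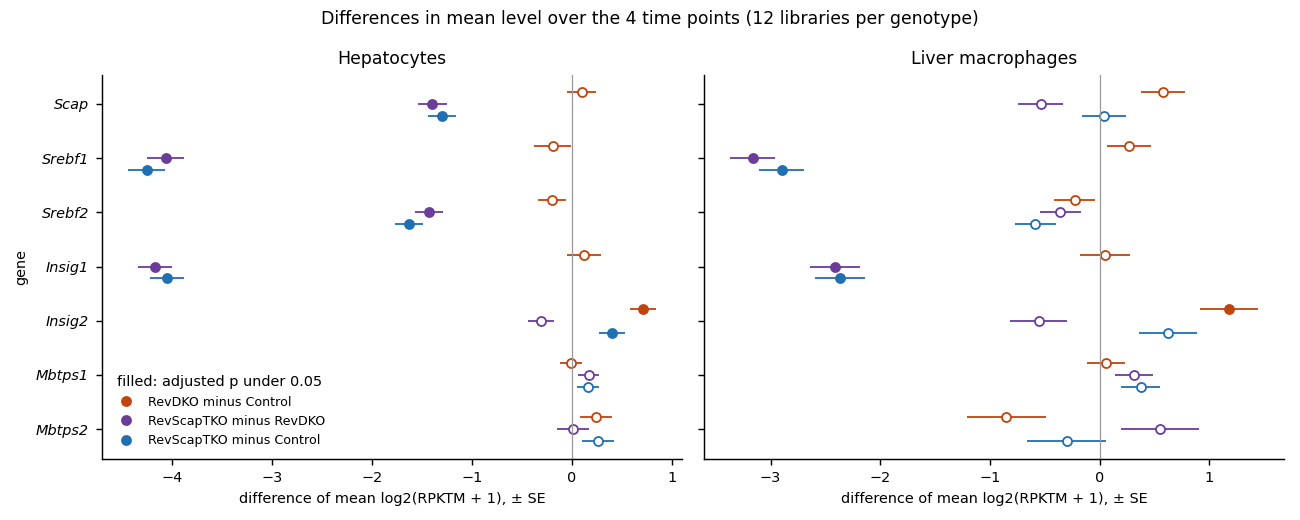
Difference of the mean over 4 times (log2(RPKTM + 1) scale) for each of the 7 genes in 3 genotype comparisons in hepatocytes and liver macrophages, with bars of 1 SE from limma and filled points for adjusted p under 0.05. Insig2 is the one gene past the threshold in RevDKO minus Control in both cell types, and Srebf1 and Insig1 lie far below 0 in both comparisons of RevScapTKO.

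Rhythm in the libraries labelled RevScapTKO was called for 0.683% of genes and for 0 members by limma, with 1 member, Insig1, at an unadjusted p under 0.05, and with 1 and 0 members by JTK_CYCLE with the series entered 2 times and once (22.3% and 3.32% of genes). Srebf1 had a peak-to-trough difference of 0.93 with a peak at ZT14.9 (adjusted p = 0.297) and Insig1 of 0.99 with a peak at ZT17.8 (adjusted p = 0.199). The change of rhythm against RevDKO passed for 0% of genes (0 of 13326 by limma, with 674 at an unadjusted p under 0.05, of which 1 was a member, Insig1).

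Hepatocyte libraries differed in their content of other liver cells. The 10 of 10 macrophage and 5 of 5 stellate markers rose in RevScapTKO against RevDKO and against Control, as did 3 and 4 of the 5 endothelial markers. The summed macrophage marker level ranged from 231 to 2985 RPKTM in Control, from 361 to 2337 in RevDKO and from 921 to 5983 in RevScapTKO. With the macrophage marker score as a covariate, the falls against RevDKO were 1.25 for Scap, 3.78 for Srebf1, 1.60 for Srebf2 and 3.92 for Insig1 on the log2 scale, and the same 4 genes passed. Insig2 was then 0.60 higher than Control (adjusted p = 0.0424). In bulk libraries, fewer cells of a type and less RNA per cell cannot be told apart. None of the macrophage, endothelial or stellate markers passed in RevDKO against Control (20 tested).

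Ratios of members were also taken within each library. A common scale factor cannot change them, but quantile normalization is not such a factor and can. Insig1 exceeded Insig2 in 9 of 12 Control, 9 of 12 RevDKO and 0 of 12 RevScapTKO hepatocyte libraries, with median ratios of Insig1 to Insig2 of 1.44, 1.39 and 0.0818. At ZT10 the ratio lay between 6.30 and 8.65 in Control and between 1.68 and 1.98 in RevDKO. Outside ZT10 it lay between 0.559 and 3.81 in Control. The ratio of Srebf1 to Srebf2 had a median of 7.08 in Control and 10.9 in RevDKO and ranged from 0.475 to 5.27 in RevScapTKO, in which Srebf1 was the higher in 10 of 12 libraries. The ratio of Mbtps1 to Mbtps2 had medians of 6.04, 6.09 and 6.12. The RevScapTKO libraries stood below the others in the INSIG ratio, while the protease ratios of the genotypes overlapped.

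**Figure D3:**
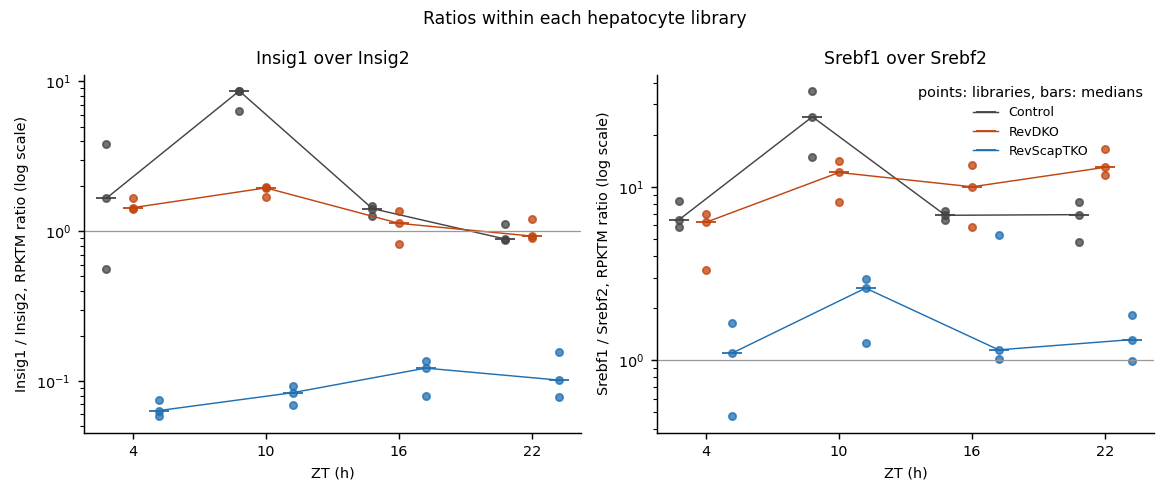
Ratios within each hepatocyte library of Insig1 to Insig2 and of Srebf1 to Srebf2 (log scale) for Control, RevDKO and RevScapTKO, with a point per library. Insig1 to Insig2 is under 1 in all 12 RevScapTKO libraries, and the Control ratios at ZT10, from 6.30 to 8.65, stand above the rest.

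Genes with the most similar pattern over the 12 hepatocyte group means were ranked by Pearson's r among 6987 genes whose means spanned at least 1 on the log2 scale. Points share libraries and their normalization, and no test is given. For Scap these were Dhcr7 (r = 0.983), Abhd14a (0.981) and Zfand4 (0.978). Those of Srebf1 included Scd1 (0.985) and Insig1 (0.983), and for Insig1 they were Mvd (0.990), Rdh11 (0.988) and Cyp51 (0.985). Those of Srebf2 included Dnajb2 (0.960) and Mapkapk3 (0.933). Insig2 was most like Rnf144a (0.952), Slc34a2 (0.948) and the clock gene Arntl (0.916). The protease genes had looser matches: Rhno1 (0.867), Cdc6 (0.865) and Tjap1 (0.836) for Mbtps1, and Kin (0.911), Vwa7 (0.884) and Bclaf3 (0.854) for Mbtps2. The means of Mbtps1 spanned 0.57 and those of Mbtps2 0.80 on the log2 scale.

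Other genes of the pathway were counted from lists. In RevDKO against Control hepatocytes, the 17 cholesterol and 13 fatty acid target genes, the 10 COPII export genes and the 11 genes of SCAP, INSIG and SREBP retention and turnover had 0 genes called by limma, with 6 of these 51 at an unadjusted p under 0.05. Of 6 tested genes for other substrates of the site-1 and site-2 proteases (Creb3l1 and Creb3l4 were under the filter), 1 fell: Creb3l3, a liver transcription factor held in the ER membrane, by 0.38 on the log2 scale. The median log2 difference was -0.16 for the cholesterol list and 0.24 for the fatty acid list, against -0.01 over all genes.

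In RevScapTKO, all 17 cholesterol targets fell against RevDKO, with a median log2 difference of -2.60, and against Control, with -2.78. Among the larger changes were those of the squalene epoxidase gene Sqle (-5.46 and -5.33) and of Fdps, which makes farnesyl diphosphate (-4.62 and -4.92). All 13 fatty acid targets fell too, with medians of -2.93 and -2.90. The largest were the desaturase genes Scd1 (-8.91 and -8.81) and Fads1 (-4.74 and -5.09) and the fatty acid synthase gene Fasn (-4.67 and -4.79). These lists were chosen as SREBP targets with earlier results of these data known. The medians over all genes were -0.03 and -0.04.

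The COPII and retention lists had 3 of 10 and 3 of 11 genes called against RevDKO, where 26.2% of all genes passed, and 2 of 10 and 2 of 11 against Control, where 35.9% passed, which is near or below the share over all genes. Of the 10 COPII genes, 2 rose against RevDKO, the cargo adaptor Sec24c (0.55) and the GTPase Sar1a (0.29), and 1 fell, the GTPase Sar1b (-0.44), with a list median of 0.10. Against Control, 2 fell, Sar1b (-0.58) and the coat gene Sec23a (-0.20), and none rose (list median 0.06). Of 11 retention and turnover genes, 1 rose against RevDKO, the ER membrane gene Erlin1 (0.55), and 2 fell, 2410131K14Rik (Spring1, a partner of the site-1 protease; -0.52) and the Golgi gene Paqr3 (-0.40; list median 0.06). Against Control, 2 rose, Erlin1 (0.54) and the ubiquitin ligase gene Rnf145 (0.42; list median -0.05). Of the other protease substrates, 0 of 6 were called against RevDKO by limma, with 2 at an unadjusted p under 0.05 (list median 0.10). Against Control, 3 rose, Creb3l2 (0.35), Gnptab (0.26) and, named after its value was seen, Atf6 (0.23), and Creb3l3 fell by 0.37 on the log2 scale (list median 0.06). With the macrophage marker score as a covariate, the COPII and substrate calls and those of the retention list against Control were lost. In that fit 1 gene of the retention list was called against RevDKO, and all 17 and 13 target genes passed. The score itself differed by genotype, with medians of 7.52 in RevScapTKO, 6.08 in RevDKO and 5.65 in Control. A lost call therefore does not show where the RNA came from.

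Liver macrophage libraries were compared in the same way, since the deletion was directed at hepatocytes and the study asked how it reached other liver cells. These libraries held hepatocyte RNA: the 9 hepatocyte markers had a median level of 14.5% of that in the hepatocyte libraries in Control, 17.9% in RevDKO and 15.3% in RevScapTKO, and the summed hepatocyte marker level had a median of 98464.5 RPKTM in Control against 16660.7 for the macrophage markers. The members' own medians in Control macrophage libraries were 19.5% (Scap), 25.5% (Srebf1), 29.7% (Srebf2), 12.1% (Insig1), 6.40% (Insig2), 29.1% (Mbtps1) and 38.7% (Mbtps2) of those in hepatocytes, with the tables normalized apart. Single hepatocyte markers ranged from 9.64% to 23.8% in Control. Insig2 lay below that range, Scap and Insig1 within it, and Srebf1, Srebf2, Mbtps1 and Mbtps2 above it. How much of a member's level in these libraries came from hepatocytes was not tested. The hepatocyte marker score was lowest at ZT10 in Control, at 10.76 to 11.18 on the log2 scale, and highest at ZT22, at 11.67 to 11.98. The summed macrophage marker level had a median of 8584 RPKTM in RevDKO and 9245 in RevScapTKO, with ranges of 3025 to 37315 in Control, 3627 to 27998 in RevDKO and 4541 to 29604 in RevScapTKO. None of the 10 macrophage markers passed between genotypes, but their median log2 difference was -0.52 in RevDKO and -0.55 in RevScapTKO against Control. Each member's mean was therefore also fitted with the hepatocyte score, or, as chosen after seeing the data, the macrophage score as a covariate.

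Srebf1 in macrophage libraries was at 149, 541 and 880 RPKTM in Control (lowest, median and highest), at 402, 565 and 976 in RevDKO and at 43.9, 62.9 and 119 in RevScapTKO. All RevScapTKO libraries lay below all others. It fell by 3.17 on the log2 scale against RevDKO (SE 0.20, adjusted p = 4.08e-13), which was 8.97-fold lower, and by 2.90 against Control (SE 0.20, adjusted p = 3.77e-12). Insig1 was at 77.3, 152 and 243 RPKTM in Control, at 69.1, 174 and 238 in RevDKO and at 10.9, 27.6 and 61.8 in RevScapTKO, again with no overlap. It fell by 2.41 against RevDKO (SE 0.23, adjusted p = 6.62e-09), or 5.33-fold, and by 2.37 against Control (SE 0.23, adjusted p = 7.17e-09). Srebf1 and Insig1 were the 2 members called in both comparisons, in which 3% and 3.76% of 13947 genes passed, and the 2 whose 12 libraries did not overlap, as in 0.151% and 0.129% of genes. With the hepatocyte marker score as a covariate their falls against RevDKO were 3.15 and 2.40, and with the macrophage marker score 3.13 and 2.40, and both passed. Srebf1 and Insig1 also fell in the hepatocytes themselves. The fits with a score therefore cannot tell hepatocyte RNA in these libraries from macrophage RNA, and the source of the falls was not tested.

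Insig2 rose in the macrophage libraries labelled RevDKO, by 1.18 on the log2 scale (SE 0.26, adjusted p = 0.0235), or 2.26-fold, and was the 1 member called where 0.574% of genes passed. At ZT10, Control held 14.8, 19.1 and 14.2 RPKTM and RevDKO 121, 66.7 and 67.0, all higher. At ZT16, Control held 40.2, 104 and 119 and RevDKO 155, 120 and 245, all higher by a narrow gap. At these times 18.5% and 15.8% of all genes did not overlap. At ZT4 and ZT22 the groups overlapped, from 24.5 to 79.1 against 39.3 to 77.0 RPKTM and from 45.0 to 341 against 213 to 406. Leaving out a library ended the call of Insig2 for Control ZT4 replicate 3, ZT16 replicate 1 and ZT22 replicate 1 and for RevDKO ZT4 replicate 3, ZT10 replicate 1 and ZT22 replicate 2, with adjusted p-values from 0.0533 to 0.0655, as did testing without the filter on low values (adjusted p = 0.0727). With the hepatocyte marker score as a covariate the rise was 1.15 (adjusted p = 0.0153), and with the macrophage marker score it was 0.87 and no longer passed (adjusted p = 0.0715). Insig2 also rose in the RevDKO hepatocytes themselves, so these fits cannot tell hepatocyte RNA from macrophage RNA. At ZT10 the hepatocyte score was 10.75 to 11.66 in RevDKO, against 10.76 to 11.18 in Control.

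The other members did not pass in RevDKO against Control macrophages. Scap was at 46.8, 96.4 and 212 RPKTM in Control and at 90.3, 147 and 264 in RevDKO, with a log2 difference of 0.58 (SE 0.20, adjusted p = 0.210, and 0.0446 without Control ZT22 replicate 3). In RevScapTKO macrophages Scap was at 78.9, 117 and 149 RPKTM, and its log2 differences were -0.54 against RevDKO (SE 0.20, adjusted p = 0.127, and 0.0315 with the macrophage marker score as a covariate) and 0.04 against Control (SE 0.20, adjusted p = 0.941). Srebf2 had a log2 difference of -0.59 between RevScapTKO and Control (SE 0.19, adjusted p = 0.0713), which passed with the hepatocyte marker score as a covariate (adjusted p = 0.0426), with the macrophage marker score (adjusted p = 0.00639) or with the replicate number as a block (adjusted p = 0.0423). Scap and Srebf2 also fell in RevScapTKO hepatocytes, so the fits with a score cannot tell the source of their RNA either. Mbtps2, at 0 to 36.7 RPKTM over the 36 libraries, was the lowest member, and 2 RevDKO libraries at ZT16 held 0.

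**Figure D4:**
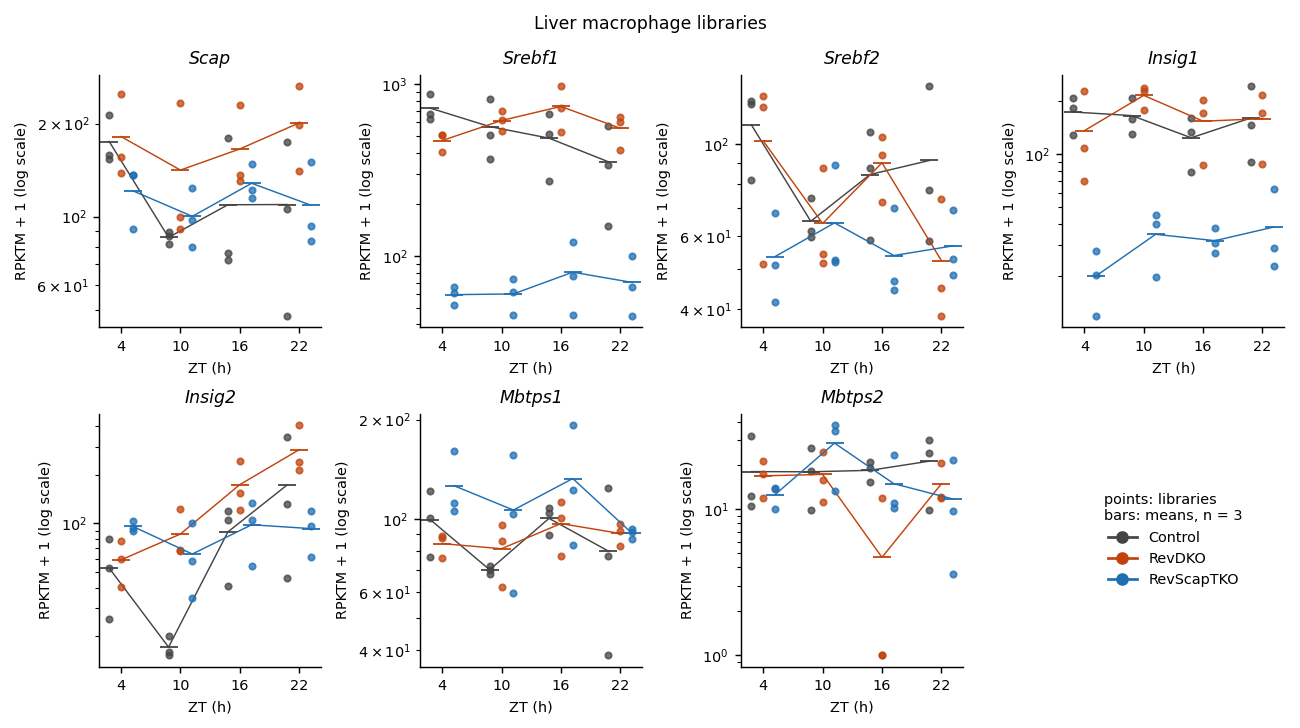
Level of the 7 genes in liver macrophage libraries (RPKTM + 1, log scale) against zeitgeber time (h), with a point per library, drawn beside its time, and lines through the means of 3 libraries. Insig2 of Control falls to between 14.2 and 19.1 RPKTM at ZT10, and Srebf1 and Insig1 of RevScapTKO lie below the other genotypes.

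Insig2 was also the 1 member called rhythmic in macrophage libraries. In Control its peak-to-trough difference was 3.01 on the log2 scale with a peak at ZT21.0 (adjusted p = 0.0282, with 0.0502% of genes called), and this call was lost (adjusted p = 0.353) with Control libraries fitted alone and without any of 7 single Control libraries (adjusted p from 0.0576 to 0.117). In RevDKO it was 2.32 with a peak at ZT19.2 (adjusted p = 0.0355, with 2.53% of genes called), and leaving out any of 7 RevDKO libraries ended the call (adjusted p from 0.0526 to 0.0941). Both calls were lost with the hepatocyte marker score as a covariate (adjusted p = 0.240 in Control and 0.282 in RevDKO) and without the filter on low values (0.0639 and 0.0792). With the macrophage marker score, Control kept its call (adjusted p = 0.00298) and RevDKO did not (0.144). At ZT22 the 3 Control libraries held Insig2 at 45.0, 131 and 341 RPKTM with summed macrophage markers of 37315, 14028 and 3025. The library with the least macrophage signal thus had the most Insig2, as in Control at ZT16, in RevDKO at each time and in RevScapTKO at ZT16. It did not at the other times of RevScapTKO, and in Control at ZT4 and ZT10 it had the least Insig2. At ZT4, Control held 79.1, 51.7 and 24.5 RPKTM with marker sums of 19581, 16287 and 11243. In RevScapTKO no member was called by limma or at an unadjusted p under 0.05 (0.0789% of genes). With the series entered 2 times, JTK_CYCLE gave 1 member in Control, 3 in RevDKO and 1 in RevScapTKO (22.2%, 30.1% and 16.9% of genes). With the series entered once it gave 1, 0 and 0 (2.91%, 5.34% and 2.57%). A change of rhythm was called by limma for 0 of 13947 genes, 0%, in RevDKO against Control (767 genes at an unadjusted p under 0.05, of which 1 was a member, Mbtps2) and for 0, 0%, in RevScapTKO against RevDKO (498 genes, of which 2 were members, Insig2 and Mbtps2).

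Pathway genes in macrophage libraries had 0 of 56 called in RevDKO against Control by limma, with 8 at an unadjusted p under 0.05. In RevScapTKO against RevDKO, 15 of 16 tested cholesterol targets fell (Hmgcs1 was under the filter), with a median of -1.86 and with larger changes in Sqle (-3.57) and Fdps (-3.28), and 13 of 13 fatty acid targets fell, with a median of -1.99 and the largest in Scd1 (-4.63), Fasn (-4.16) and Thrsp (-3.86), a lipogenic regulator. Against Control, 12 of 16 and 12 of 13 fell, with medians of -1.52 and -1.89 with larger changes in Fdps (-3.17) and Sqle (-2.90) and the largest fatty acid target changes in Scd1 (-4.02), Fasn (-3.90) and Thrsp (-2.73). The medians over all genes were 0.04 and -0.04. The remaining 3 lists had 0 of 27 genes called by limma in both comparisons, with 2 and 1 at an unadjusted p under 0.05.

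ScapKO libraries were read within their own tables. In hepatocytes, ZT22 replicate 2 stood apart, with Scap at 1006, Srebf1 at 2129, Insig1 at 1933 and Insig2 at 7053 RPKTM, and with summed macrophage, endothelial and stellate markers of 3353, 4939 and 3470 RPKTM against at most 1389, 1556 and 2117 in the other 11 libraries. Without it, Scap ranged from 205 to 380, Srebf1 from 126 to 1661, Srebf2 from 124 to 327, Insig1 from 109 to 331, Insig2 from 580 to 2603, Mbtps1 from 444 to 555 and Mbtps2 from 45.8 to 99.4 RPKTM. Insig2 exceeded Insig1 in 12 of 12 libraries.

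Insig2 in ScapKO hepatocytes held 2339, 1195 and 1198 RPKTM at ZT4, 580, 601 and 619 at ZT10, 2206, 1415 and 1118 at ZT16, and 1588, 7053 and 2603 at ZT22. All ZT10 libraries lay below all others. Its peak-to-trough difference was 2.36 on the log2 scale with a peak at ZT22.0 (adjusted p = 0.0237, with 1.85% of 12724 genes called, and 19.9% and 5.16% by JTK_CYCLE with the series entered 2 times and once, which gave 1 member each), and without any single ZT10 library the call was lost (adjusted p of 0.0969, 0.0871 and 0.0728). Without ZT22 replicate 2, Srebf1 (adjusted p = 0.0342) and Insig1 (adjusted p = 0.0418) passed as well, so that 3 members were called in place of 1. Outside ZT22, the highest mean of Srebf1 was at ZT10, where it held 1030, 1661 and 447 RPKTM.

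In ScapKO macrophage libraries, ZT22 replicate 2 again stood apart, with a summed macrophage marker level of 21205 RPKTM against 81258 to 131880 in the other 11 and with the highest hepatocyte marker sum, 139247. It held the highest Scap (1018), Srebf1 (1808), Insig1 (772) and Insig2 (2230) of its table, and ZT4 replicate 2 held Srebf1 at 1734. Without these 2 libraries, Scap ranged from 523 to 757, Srebf1 from 285 to 571, Insig1 from 126 to 306 and Insig2 from 101 to 327 RPKTM. No gene was called rhythmic (0% of 13930 genes by limma, with 1412 at an unadjusted p under 0.05, of which 1 was a member, Insig2, adjusted p = 0.465), and JTK_CYCLE called 1 member with the series entered 2 times or once (23.2% and 3.63% of genes). The mean of Insig2 was lowest at ZT10 there too, with libraries at 101, 103 and 176 RPKTM. Unlike in hepatocytes, these overlapped the libraries at ZT4 and at ZT16.

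**Figure D5:**
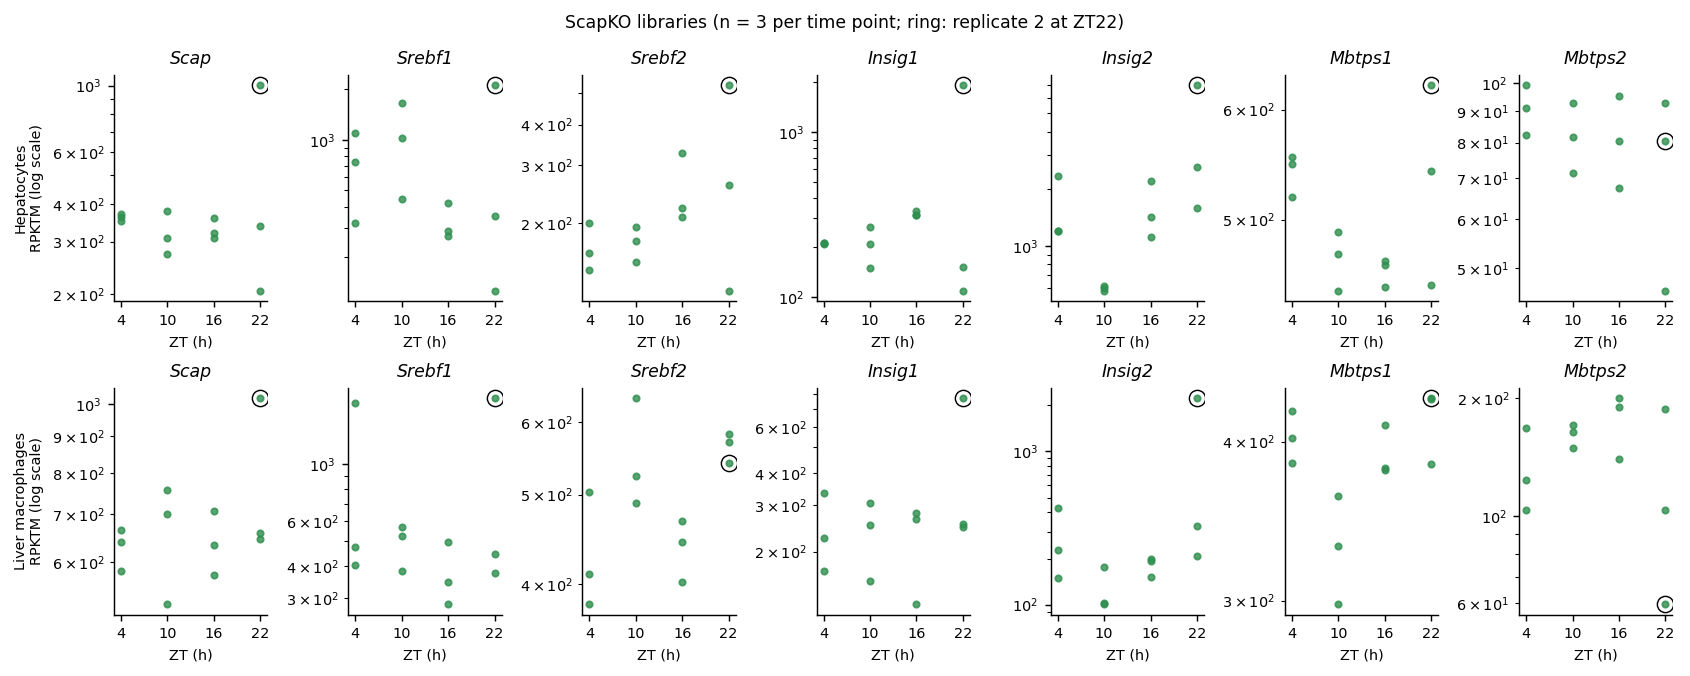
Level of the 7 genes in the ScapKO tables of hepatocytes and liver macrophages (RPKTM, log scale) against zeitgeber time (h), with a point per library and ZT22 replicate 2 set apart by its marker. That library holds the highest Insig2 of both tables, 7053 and 2230 RPKTM.

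Each gene was tested through its transcript entry with the highest mean, and the other entries followed it closely, with r of at least 0.990. On mm9, the tested Insig2 transcript spans chr1:123200930-123224601 and Insig1 chr5:28397952-28405202. Srebf1 (chr11:60012586-60034129) shares 112 bp at its 3′ end with Rai1 on the opposite strand, which reached 95.5 RPKTM at most in hepatocytes, and without a stated strand setting reads of that stretch cannot be told apart. Mir33 lies within Srebf2 and did not exceed 0.456 RPKTM in hepatocytes, while Yy2 lies within Mbtps2 on the same strand and reached 30.3 RPKTM, so the low levels of Mbtps2 are the less certain.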

How the data were processed

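RNA was measured in 96 libraries of hepatocytes and liver macrophages. Per the submitters' processing notes and the study's methods, the authors aligned reads with STAR to mm9 and quantified transcripts with HOMER; versions and the strand setting are not given in the sources used here. The deposited values are RPKM-like RPKTM (reads per kilobase per 10000000 reads), quantile-normalized by the authors in 4 separate tables, so depth is unknown. Identical sorted values were checked in each table.

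Samples were grouped by the genotype, cell type and time in their titles. For each gene the transcript of highest mean was taken, kept where at least 3 libraries exceeded 5 RPKTM, and tested on log2(RPKTM + 1) with limma 3.58.1 (R 4.3.3; eBayes with a mean-variance trend) in 1 model of genotype by time per table. Contrasts were the mean over 4 times, single times, and an F test of the 24 h cosine and sine terms; p-values are two-sided, adjusted by Benjamini-Hochberg over all genes tested, with a threshold of 0.05. The JTK_CYCLE p-values were adjusted within each gene only, not over genes. The code was tested on simulated data. Members, lists and motifs were chosen with earlier results of these data known. Genes were named by a rule: all members, up to 3 largest called changes per list, and the 3 genes most like each member; some genes that the rule names are not reported here. Markers were 10 hepatocyte, 10 macrophage, 5 endothelial and 5 stellate genes. Same-numbered libraries of different genotypes at the same time correlated by 0.063 on average in hepatocytes and 0.089 in macrophages, over 0.1 in 13 and 15 of 36 pairs. Libraries of other numbers correlated by -0.032 and -0.044 on average. The numbers were not treated as pairs in the main fits. Alternatives were the pseudocount, filter, scaling, transcript choice, replicate block, marker covariates (those of rhythm and of the macrophage score in macrophages chosen after seeing the data), genotypes fitted, JTK_CYCLE and leaving out single libraries. Proteins were not analysed here.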

Additional observations from a re-analysis of the deposited data

Results flagged for a closer look

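For 2 members, the 3 libraries of a group all moved one way at one time and all the opposite way at another. Srebf1 in hepatocytes was lower in every library labelled RevDKO than in every Control library at ZT10 (-1.07 on the log2 scale) and higher at ZT16 (0.33), times at which 17.1% and 14.6% of all genes did not overlap in either direction. The F test of the change of rhythm across all times gave an adjusted p of 0.575 for Srebf1 by limma, and the difference between these 2 times alone was not tested.

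Insig2 in hepatocytes was higher in every library labelled RevScapTKO than in Control at ZT10 (1.57) and lower at ZT22 (-0.51), where 28% and 24.4% of all genes did not overlap, and this difference was not tested. In macrophage libraries, Insig2 was higher in every RevScapTKO than RevDKO library at ZT4 (0.74) and lower at ZT22 (-1.62), where 11.7% and 14.2% of all genes did not overlap. The F test of the change of rhythm gave an unadjusted p of 0.0438 and an adjusted p of 0.998 by limma for this pair of genotypes, and the difference between these 2 times alone was not tested.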

How the results depend on the processing

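Of the values for single genes under the alternatives, 6481 kept their direction and side of the threshold, 33 came to pass it, 33 no longer passed and 61 turned direction. The calls of Srebf1, Insig1, Scap and Srebf2 in the hepatocyte means of RevScapTKO were kept under every alternative run, as was that of Insig2 in RevDKO against Control. Causes were not tested. Limits are the unknown depth, 3 libraries a group, separately normalized tables and, in macrophage libraries, hepatocyte RNA.

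Counts of members called moved as follows. Without the filter, counts fell from 1 to 0 for macrophage RevDKO minus Control, for rhythm in Control and RevDKO macrophages and for rhythm in ScapKO hepatocytes. Fitting only the genotypes compared gave 2 at ZT10, 1 for the changed rhythm of RevDKO minus Control in hepatocytes, 3 and 1 for rhythm in Control and RevDKO hepatocytes, and 0 in Control macrophages. The marker score as a covariate gave 1 for that changed rhythm. In macrophages, where covariates were partly added after seeing the data, the macrophage marker score gave 0 for RevDKO minus Control and for rhythm in RevDKO, and the hepatocyte marker score gave 0 for rhythm in Control and in RevDKO. Rescaling gave 0 for rhythm in Control macrophages. JTK_CYCLE with the series entered 2 times gave 3, 2 and 1 for rhythm in Control, RevDKO and RevScapTKO hepatocytes, 3 and 1 in RevDKO and RevScapTKO macrophages and 1 in ScapKO macrophages, and entered once it gave 2, 1, 0 and 1 in Control and RevDKO hepatocytes, RevDKO macrophages and ScapKO macrophages. For rhythm in RevDKO macrophages, a pseudocount of 0.1 and a filter of at least 12 libraries gave 2. The replicate number as a block gave 2 there and, through Srebf2, 3 in place of 2 for macrophage RevScapTKO minus Control. It changed no other count, and the numbers are not known to pair the libraries. Leaving out 1 library gave 0 to 2 for macrophage RevDKO minus Control, 1 to 2 at ZT10, 0 to 1 for the changed rhythm, and, for rhythm, 1 to 2 in Control and 0 to 1 in RevDKO hepatocytes, 0 to 1 in Control and 0 to 2 in RevDKO macrophages and 0 to 3 in ScapKO hepatocytes. Leaving out both ScapKO macrophage libraries named in the report, chosen after seeing the data, gave 0 rhythmic members, as with them.

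Differences that turned direction follow, in hepatocytes and for RevDKO minus Control unless named. Rescaling gave 0.0044 for the mean of Mbtps1 and 0.0020 for Scap at ZT10. The covariate gave 0.0376 for Scap and -0.0247 for Srebf2 at ZT10, -0.0333 for Insig2 at ZT22 and -0.0759 for Mbtps2 in RevScapTKO minus RevDKO. In macrophages the macrophage marker score gave -0.0504 for Insig1, -0.0670 for Mbtps1 and, in RevScapTKO minus Control, -0.19 for Scap. Leaving out 1 library gave ranges of the mean of -0.031 to 0.22 for Insig1, -0.077 to 0.065 for Mbtps1 and, in RevScapTKO minus RevDKO, -0.071 to 0.10 for Mbtps2. In macrophages they were -0.067 to 0.15 for Insig1, -0.053 to 0.16 for Mbtps1 and, in RevScapTKO minus Control, -0.087 to 0.15 for Scap. At ZT4 they were -0.050 to 0.26 for Scap, -0.42 to 0.045 for Srebf2, -0.13 to 0.88 for Insig1 and -0.023 to 0.41 for Mbtps2. At ZT10 they were -0.24 to 0.25 for Scap, -0.24 to 0.33 for Srebf2 and -0.058 to 0.55 for Mbtps2. At ZT16 they were -0.041 to 0.14 for Scap, -0.37 to 0.050 for Srebf2, -0.11 to 0.024 for Mbtps1 and -0.26 to 0.14 for Mbtps2. At ZT22 they were -0.0070 to 0.23 for Insig1 and -0.079 to 0.21 for Insig2.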
